A study of Mus musculus with 10 samples.

Results

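Collagens are the triple-helical proteins that form most of the extracellular matrix, and the mouse encodes them in a family of genes named Col, a type number, a and a chain number. The collagen genes described here were the protein-coding records whose symbol had exactly that form, which gave 44 of 54347 gene records (21766 of them protein coding). They were split by the assembly their chains form: 11 fibrillar genes, 6 genes of the type IV basement membrane network and 27 other collagens. Expression was measured by poly A RNA-Seq in interscapular brown adipose tissue, or iBAT, whose adipocytes burn fat to make heat. The 10 mice were C57BL/6N, aged 12 weeks and housed singly for 24 h at 4 °C before the tissue was taken, so that no mouse kept warm was compared here. Of these, 5 were homozygous for a CRISPR/Cas9 deletion that takes out exon 1 of Gm15551, a lncRNA gene. They are called ΔGm15551 and numbered 1, 2, 4, 5 and 7. The other 5 were wild type littermates, numbered 2, 3, 5, 6 and 7. The deletion is carried by all cells, and the knockout line had been backcrossed to wild type animals.

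Fibrillar collagens are made as procollagens, trimmed outside the cell and packed into cross-linked fibrils that give tissue its tensile strength. Type I is a trimer of Col1a1 and Col1a2 chains, type III a trimer of Col3a1 alone, and type V chains are incorporated into type I fibrils and limit their diameter. Type IV collagen keeps flexible interruptions in its helix and forms the sheet-like network of basement membranes. In adipose tissue a basement membrane surrounds each adipocyte and each capillary, and fibroblasts and adipocyte progenitors are the main makers of fibrillar collagen. The other collagens include the beaded filaments of type VI, the multiplexins of types XV and XVIII at the outer face of basement membranes, and fibril-associated and transmembrane forms. The study asked what loss of Gm15551 changes in iBAT, and the comparison of the genotypes is given here for the collagens.

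The libraries held 9680976 to 15771170 counts, of which 0.187% to 0.343% fell on collagen genes. Gm15551 had 0 counts in all ΔGm15551 mice and 1, 2, 6, 7 and 0 counts in wild type replicates 2, 3, 5, 6 and 7, so that this gene does not separate wild type replicate 7 from the knockout mice. The tissue expressed all 6 brown adipocyte markers in every mouse, with summed levels of 9991 to 14650 CPM (TMM-scaled counts, relative to the size of the library) in ΔGm15551 and 10012 to 13163 in wild type. Fibroblast and progenitor markers (7 of 7 counted in every mouse) summed to 169 to 303 and 186 to 258 CPM, endothelial markers (5 of 5) to 741 to 1263 and 692 to 1162 CPM, and mural cell markers (6 of 6) to 425 to 674 and 501 to 624 CPM. The summed level of 10 skeletal muscle markers ran from 1.28 to 1937 CPM in ΔGm15551 and from 1.49 to 3105 CPM in wild type, with 7 of the 10 at 0 in some mouse. The 5 tendon and cartilage markers summed to at most 2.23 CPM and none passed the filter. Wild type replicate 2 stood apart from the other wild type mice in several collagens. Wild type replicates 5, 6 and 7 carry mouse numbers above 1000 and all other mice lower ones, so that the 3 higher numbers are all wild type while the lower ones hold both genotypes. Estimates without wild type replicate 2 and without these 3 mice are given beside many of the genes. Without these 3 mice, only wild type replicates 2 and 3 remain on the wild type side. Replicate 2, which stood apart, then weighs heavily in those estimates. In bulk tissue a lower number of cells of a type and less RNA per cell cannot be told apart.

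All 44 collagen genes had at least 1 count, and 29 passed the filter on low counts (8 fibrillar, 5 basement membrane and 16 other). Levels between genes are compared per length, as CPM per kb of annotated exon, and values are means ± SD over the 10 mice. The order was led by Col4a1 at 137 ± 22.3 and Col4a2 at 135 ± 20.5 CPM per kb, which changed places between mice (Col4a1 was higher in 6 of 10). The next gene, the fibrillar Col27a1 at 11.3 ± 3.13 CPM per kb, lay 12.0-fold under Col4a2 by their means and under it in 10 of 10 mice, with a ratio of 7.03 in ΔGm15551 replicate 1 to 17.1 in ΔGm15551 replicate 4. The size of this step depends on the length used. With the longest coding transcript the gene after Col4a2 was Col3a1, 7.04-fold under it, and with the median coding length Col3a1 (149 CPM per kb) lay above Col4a2 (139). Col27a1 and Col3a1 (11.2 ± 3.79) changed places between mice, with Col27a1 higher in 6 of 10. So did Col3a1 and Col6a1 (9.67 ± 1.51), in that order in 6 of 10, and Col6a1 and Col1a1 (9.01 ± 3.41), in 7 of 10. They were followed by Col5a3 (6.52 ± 1.75), Col1a2 (5.16 ± 1.73), Col6a2 (4.51 ± 1.04) and Col15a1 (4.47 ± 0.673 CPM per kb). Col15a1 lay above Col18a1 (3.20 ± 0.615) in 10 of 10 mice. A further step followed Col8a1, at 1.423 ± 0.287 CPM per kb and above Col12a1 (0.584 ± 0.148) in 10 of 10 mice. The 10 genes from Col4a1 to Col15a1 were also the leading 10 with the longest or the median annotated coding transcript as the length, and without any 1 mouse.

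**Figure D1:**
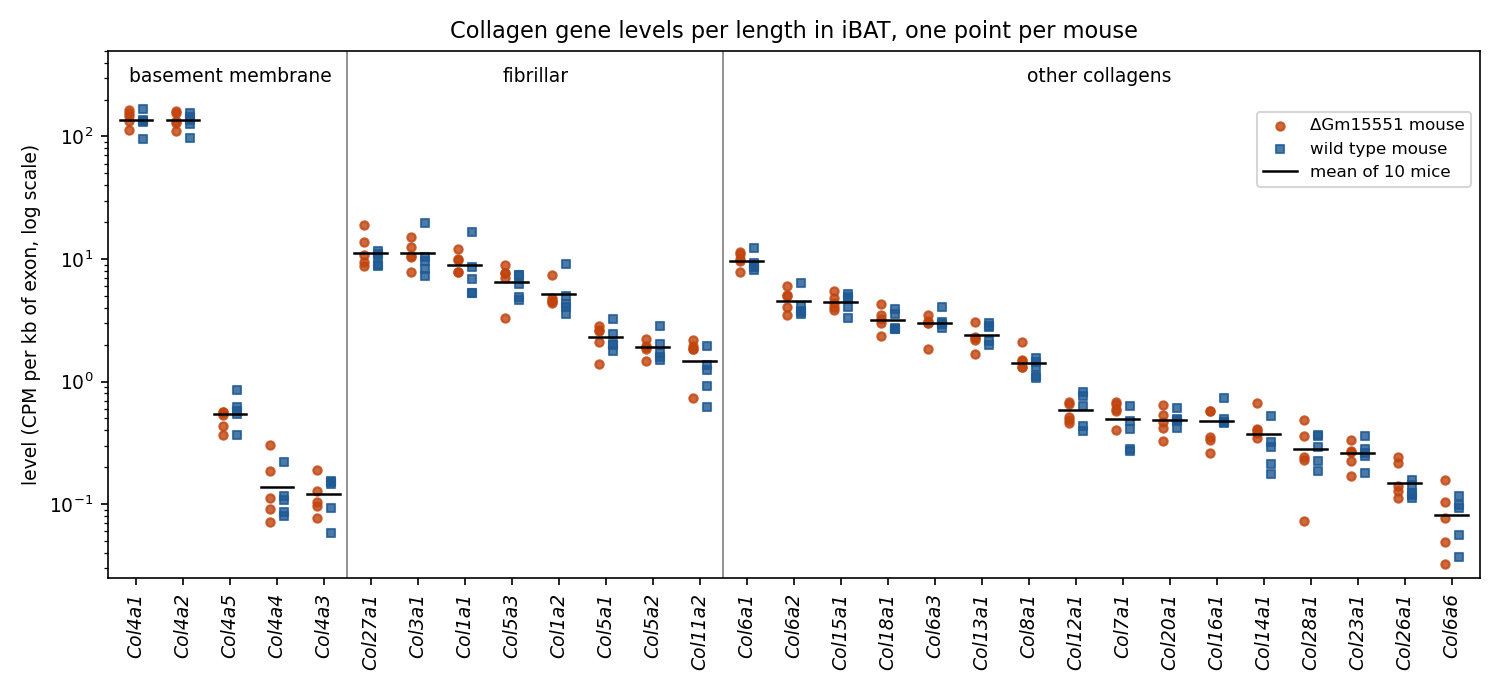
Level of the 29 tested collagen genes on the y axis, in CPM per kb of exon on a log scale, ordered by mean within basement membrane, fibrillar and other collagens. Circles are the 5 ΔGm15551 mice, squares the 5 wild type mice and bars the mean of 10. Col4a1 and Col4a2 sit near 137 and 135, above every point of every other collagen, and in each gene the circles and squares overlap.

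The class shares of the collagen level show the same weight. Per length, the basement membrane genes made up 77.1 ± 2.79% of the summed collagen level (mean ± SD, n = 10), the fibrillar genes 13.7 ± 2.29% and the other collagens 9.20 ± 0.863%. The basement membrane share ran from 72.8% in ΔGm15551 replicate 1 to 81.0% in wild type replicate 5, and the fibrillar share from 10.7% in wild type replicate 5 to 18.1% in ΔGm15551 replicate 1. By genotype the fibrillar share was 14.0 ± 2.56% in ΔGm15551 and 13.4 ± 2.23% in wild type (n = 5 each), a difference smaller than the SD within either group. With the longest coding transcript as the length, the shares were 71.7%, 18.1% and 10.2%. The choice matters for genes such as Col1a2 with 12426 exon bases against 5348 in its longest coding transcript. Col4a1 and Col4a2 alone held 73.4 ± 3.13% of all collagen counts, from 67.9% (ΔGm15551 replicate 1) to 77.3% in wild type replicate 5. All collagens together reached 2616 ± 404 CPM, lowest in wild type replicate 6 (1918) and highest in wild type replicate 2 (3250.2).

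**Figure D2:**
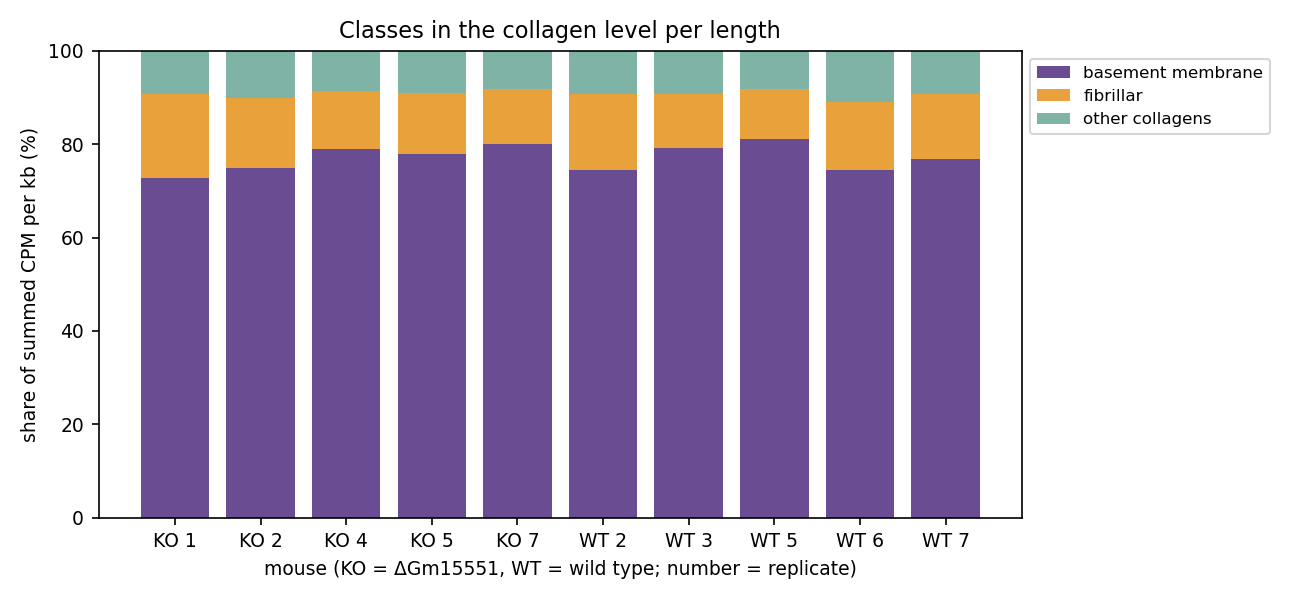
Share of each class in the summed CPM per kb (y axis, %) for each of the 10 mice (x axis, KO for ΔGm15551 and WT for wild type with the replicate number). The basement membrane part fills 72.8% to 81.0% of every bar, and neither genotype stands apart.

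The type IV genes were examined first. They lie in head-to-head pairs, and Col4a1 (ENSMUSG00000031502.11, chr8:11198423-11312826, minus strand, GRCm38) and Col4a2 (ENSMUSG00000031503.13, chr8:11312805-11449287, plus strand) start 21 bases apart on opposite strands, so that the first 22 bases of their transcripts overlap. The pair encodes the α1 and α2 chains of the common basement membrane trimer. The 250 bases before each start overlap exons of the partner gene. In RefSeq on GRCm38.p6 these windows had a GC content of 74.4% and 73.6%, against a median of 52.4% over the windows of all 32851 annotated promoters.

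Col4a1 was at 1091, 848, 1152, 1220.0 and 991 CPM in ΔGm15551 replicates 1, 2, 4, 5 and 7 and 1257, 991, 979, 709 and 1009 CPM in wild type replicates 2, 3, 5, 6 and 7. The lowest and the highest values were both wild type, in replicates 6 and 2, and the groups overlapped. The log2 fold change (log2FC, ΔGm15551 against wild type) was 0.10 (SE 0.16), with a 95% interval of -0.24 to 0.44 and an unadjusted p of 0.534 by the quasi-likelihood test of edgeR. Col4a2 was at 883, 727, 1064, 1034 and 859.6 CPM in ΔGm15551 replicates 1, 2, 4, 5 and 7 and 1035, 895, 958, 648 and 839 CPM in wild type replicates 2, 3, 5, 6 and 7, again with overlapping groups. Its log2FC was 0.062 (SE 0.15), with a 95% interval of -0.26 to 0.39. Both intervals lay within a 2-fold change in either direction. The ratio of Col4a1 to Col4a2 per kb was 1.02 ± 0.060 (SD, n = 10) and stayed between 0.906 and 1.096 in single mice. It was 1.12 ± 0.066 with the longest coding transcripts as lengths.

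The remaining type IV genes were far lower. Col4a3 and Col4a4, whose chains join with the α5 chain in the basement membranes of kidney and lung, were at 1.197 ± 0.408 and 1.46 ± 0.799 CPM over the 10 mice, with 26 and 44 counts in the highest mouse. On chromosome 1, 71 bases lie between their annotated starts. Col4a4 was at 3.22, 1.99, 0.965, 0.765 and 1.19 CPM in ΔGm15551 replicates 1, 2, 4, 5 and 7 and 2.32, 0.854, 1.14, 0.910 and 1.23 CPM in wild type replicates 2, 3, 5, 6 and 7, with overlapping groups. The log2FC of Col4a4 was 0.35 (SE 0.41), and it was -0.055 without ΔGm15551 replicate 1 and 0.66 without wild type replicate 2. That of Col4a3 was 0.013 (SE 0.33). Col4a5, on the X chromosome, was at 2.93, 3.62, 3.79, 2.45 and 3.80 CPM in ΔGm15551 replicates 1, 2, 4, 5 and 7 and 5.72, 3.84, 4.14, 3.64 and 2.46 CPM in wild type replicates 2, 3, 5, 6 and 7. The highest value was again that of wild type replicate 2, and the log2FC was -0.26 (SE 0.22). Without that mouse it was -0.093, and without the 3 wild type mice numbered above 1000 it was -0.53. Col4a6, the neighbour of Col4a5, had at most 5 counts in a mouse and was not tested.

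Among the fibrillar genes, Col27a1, Col3a1 and Col1a1 led per kb of exon, followed by Col5a3 and Col1a2. The 250 bases before the RefSeq start of Col3a1 and Col27a1, which stood side by side in level, and of Col6a3, the least abundant per kb of the 3 main type VI chains, are shown to let their upstream sequences be compared. They are from RefSeq on GRCm38.p6 and are printed 5′ to 3′ on the strand of the gene, Col3a1 at chr1:45311288-45311537 and Col27a1 at chr4:63215162-63215411 on the plus strand and Col6a3 at chr1:90843972-90844221 on the minus strand. The GENCODE record of Col27a1 begins at 63214004, upstream of this window, which lies outside its exons. Capitals mark a match, on either strand, to 1 of the 3 motifs searched, which were the CCAAT box, the TATA element TATAAA and the GC box GGGCGG.

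Col3a1: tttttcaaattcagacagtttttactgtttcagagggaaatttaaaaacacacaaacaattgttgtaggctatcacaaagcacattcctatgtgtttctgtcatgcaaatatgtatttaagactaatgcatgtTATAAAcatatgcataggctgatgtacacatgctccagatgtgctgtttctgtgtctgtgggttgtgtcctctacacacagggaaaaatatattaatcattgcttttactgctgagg
Col27a1: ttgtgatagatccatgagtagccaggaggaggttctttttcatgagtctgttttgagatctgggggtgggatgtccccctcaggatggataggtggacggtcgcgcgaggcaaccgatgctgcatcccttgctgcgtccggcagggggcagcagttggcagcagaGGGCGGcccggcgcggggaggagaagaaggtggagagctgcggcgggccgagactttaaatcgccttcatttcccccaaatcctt
Col6a3: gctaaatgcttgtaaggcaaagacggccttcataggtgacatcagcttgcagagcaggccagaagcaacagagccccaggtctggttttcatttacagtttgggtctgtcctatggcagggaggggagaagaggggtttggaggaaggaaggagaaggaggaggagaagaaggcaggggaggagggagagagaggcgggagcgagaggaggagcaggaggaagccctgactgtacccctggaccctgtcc

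Col3a1 held 1 TATAAA match, 117 to 112 bases before its start, at 35.2% GC. Col27a1 held 1 GGGCGG match at 59.6% GC, and Col6a3 held none of the 3 motifs at 57.2% GC. On either strand CCAAT occurs in 33.8% of the 32851 promoters, GGGCGG in 32.7% and TATAAA in 12.4%. RefSeq windows were found for 35 of the 44 members (38 windows), of which 5 genes held TATAAA, namely Col3a1, Col10a1, Col11a2, Col13a1 and Col17a1. These matches are letters in a window and were not tested as binding sites.

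Col1a1 (ENSMUSG00000001506.10, chr11:94936224-94953042, plus strand) was at 79.8, 51.3, 64.5, 65.2 and 51.5 CPM in ΔGm15551 replicates 1, 2, 4, 5 and 7 and 109, 44.8, 34.3, 34.4 and 56.6 CPM in wild type replicates 2, 3, 5, 6 and 7. Wild type mice held both the highest value, in replicate 2, and the 3 lowest, in replicates 3, 5 and 6. The log2FC was 0.17 (SE 0.29), with a 95% interval of -0.46 to 0.79 and an unadjusted p of 0.577. Without wild type replicate 2 it was 0.56, where the unadjusted p was 0.0103 and the adjusted p 0.99987 (edgeR, Benjamini-Hochberg). Without the 3 wild type mice numbered above 1000, which leaves wild type replicates 2 and 3 alone, it was -0.30. The estimate for Col1a1 therefore turned on which wild type mice were included.

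Its partner chain Col1a2 was at 92.0, 54.3, 60.1, 56.0 and 56.1 CPM in ΔGm15551 replicates 1, 2, 4, 5 and 7 and 114, 53.2, 44.3, 50.3 and 61.7 CPM in wild type replicates 2, 3, 5, 6 and 7, highest in wild type replicate 2 and ΔGm15551 replicate 1, and its log2FC was -0.020 (SE 0.24). It was 0.28 without wild type replicate 2, -0.19 without ΔGm15551 replicate 1 and -0.39 without the 3 wild type mice numbered above 1000. Col3a1 (ENSMUSG00000026043.18, chr1:45311538-45349706, plus strand) was at 148, 102, 124, 105 and 76.6 CPM in ΔGm15551 replicates 1, 2, 4, 5 and 7 and 194, 101, 71.8, 80.8 and 94.3 CPM in wild type replicates 2, 3, 5, 6 and 7. Wild type replicate 2 lay at 193.6 CPM with the other wild type mice between 71.8 and 101 CPM, and the log2FC was 0.036 (SE 0.25), with a 95% interval of -0.51 to 0.58. Without that mouse it was 0.35, and without the 3 wild type mice numbered above 1000 it was -0.41.

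Col27a1 (ENSMUSG00000045672.15, chr4:63214004-63334991, plus strand), a fibrillar collagen of cartilage and developing tissues with a short helix, was at 247, 114, 123, 179.7 and 141 CPM in ΔGm15551 replicates 1, 2, 4, 5 and 7 and 144, 117, 150.5, 114 and 138 CPM in wild type replicates 2, 3, 5, 6 and 7. ΔGm15551 replicates 1 and 5 were the highest of the 10 and the other 3 lay among the wild type mice. The log2FC was 0.28 (SE 0.19), unadjusted p 0.179, and it was 0.069 without ΔGm15551 replicate 1. Its level per kb was 1.35 ± 0.417 times that of Col1a1 (SD, n = 10), from 0.670 in wild type replicate 2 to 2.21 in wild type replicate 5. With the longest coding transcripts as lengths this ratio was 2.09 ± 0.645. The cartilage markers Acan, Comp and Sox9 were at most 1.34 CPM in any mouse.

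Of the type V chains, Col5a3 was the highest per kb. It was at 61.0, 52.1, 47.6, 52.5 and 22.4 CPM in ΔGm15551 replicates 1, 2, 4, 5 and 7 and 50.4, 31.3, 33.1, 42.6 and 50.9 CPM in wild type replicates 2, 3, 5, 6 and 7, lowest in ΔGm15551 replicate 7 and highest in ΔGm15551 replicate 1, with a log2FC of 0.18 (SE 0.23). Without ΔGm15551 replicate 7 it was 0.36 (edgeR, unadjusted p 0.0474, adjusted p 0.9998), and without ΔGm15551 replicate 1, wild type replicate 3 or wild type replicate 5 it was 0.068, 0.093 and 0.11. Col5a1 was at 24.0, 17.9, 21.7, 22.3 and 11.8 CPM in ΔGm15551 replicates 1, 2, 4, 5 and 7 and 27.5, 17.2, 14.99, 16.8 and 20.9 CPM in wild type replicates 2, 3, 5, 6 and 7. Col5a2 was at 21.4, 17.6, 18.9, 18.2 and 14.2 CPM in ΔGm15551 replicates 1, 2, 4, 5 and 7 and 27.4, 14.4, 16.4, 15.3 and 19.4 CPM in wild type replicates 2, 3, 5, 6 and 7. Both genes had their lowest value in ΔGm15551 replicate 7 and their highest in wild type replicate 2. Their log2FC were 0.0084 (SE 0.20) and -0.041 (SE 0.17). Col11a2, a type XI chain known from cartilage fibrils, was at 12.7, 14.96, 5.05, 13.3 and 12.7 CPM in ΔGm15551 replicates 1, 2, 4, 5 and 7 and 8.58, 6.32, 4.28, 9.36 and 13.3 CPM in wild type replicates 2, 3, 5, 6 and 7. The 3 lowest values were split between the groups, and the log2FC was 0.49 (SE 0.31), unadjusted p 0.131. It was 0.69 without ΔGm15551 replicate 4, the lowest ΔGm15551 mouse, 0.72 without wild type replicate 7 and 0.32 without wild type replicate 5, the lowest wild type mouse. The other fibrillar genes, Col2a1, Col11a1 and Col24a1, had at most 1, 10 and 5 counts in a mouse and were not tested.

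Type VI led the other collagens. Its beaded filaments, built from α1, α2 and α3 chains, lie at the interface of basement membrane and fibrils. Col6a1 (ENSMUSG00000001119.7, chr10:76708792-76726168, minus strand) was at 41.9, 43.6, 47.8, 50.3 and 34.5 CPM in ΔGm15551 replicates 1, 2, 4, 5 and 7 and 54.2, 40.4, 35.7, 37.5 and 37.7 CPM in wild type replicates 2, 3, 5, 6 and 7. Wild type replicate 2 was the highest mouse and ΔGm15551 replicate 7 the lowest, and the log2FC was 0.086 (SE 0.14), with a 95% interval of -0.21 to 0.38. It was 0.20 without wild type replicate 2 and -0.12 without the 3 wild type mice numbered above 1000. Col6a2, 85161 bases away on the same strand of chromosome 10, was at 42.0, 33.6, 41.8, 50.1 and 29.0 CPM in ΔGm15551 replicates 1, 2, 4, 5 and 7 and 52.9, 34.5, 31.1, 29.9 and 31 CPM in wild type replicates 2, 3, 5, 6 and 7, with a log2FC of 0.13 (SE 0.18), which was 0.31 and -0.15 under the same omissions. Col6a3 was at 36, 35.7, 41.6, 37.6 and 22.2 CPM in ΔGm15551 replicates 1, 2, 4, 5 and 7 and 48.2, 36.8, 33.0, 35.4 and 35.3 CPM in wild type replicates 2, 3, 5, 6 and 7, with a log2FC of -0.12 (SE 0.16), again highest in wild type replicate 2 and lowest in ΔGm15551 replicate 7. The estimate for Col6a3 was -0.0017 without ΔGm15551 replicate 7, -0.022 without wild type replicate 2 and -0.30 without the 3 wild type mice numbered above 1000. Per kb, Col6a3 was at 0.313 ± 0.035 of Col6a1 (SD, n = 10) and at 0.347 ± 0.039 with the longest coding transcripts. Of the other type VI genes, Col6a6 was at 0.752 ± 0.364 CPM over the 10 mice with a log2FC of 0.047 (SE 0.44), and Col6a4 and Col6a5 had at most 4 and 7 counts in a mouse.

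The multiplexins Col15a1 and Col18a1, the latter the source of the fragment endostatin, lay per kb, by their means, under Col6a1 and above Col6a3, which Col18a1 exceeded in 6 of 10 mice. Col15a1 was at 34.8, 25.5, 30.6, 27.8 and 24.5 CPM in ΔGm15551 replicates 1, 2, 4, 5 and 7 and 32.8, 31.2, 20.8, 25.7 and 30.1 CPM in wild type replicates 2, 3, 5, 6 and 7. Col18a1 was at 22.6, 21.3, 24.6, 30.0 and 16.5 CPM in ΔGm15551 replicates 1, 2, 4, 5 and 7 and 27.6, 19.2, 18.9, 18.8 and 25.1 CPM in wild type replicates 2, 3, 5, 6 and 7. In both genes the groups overlapped. Their log2FC were 0.027 (SE 0.14) and 0.071 (SE 0.16), both with 95% intervals inside -0.28 to 0.43. The transmembrane collagens Col13a1, found at cell adhesion sites, and Col23a1 were at 7.73 to 14.2 CPM and 0.965 to 2.08 CPM, with log2FC of -0.15 (SE 0.17) and -0.085 (SE 0.26). Col8a1, the short-chain collagen of vessel walls, was at 8.32 to 16.4 CPM with a log2FC of 0.25 (SE 0.16), with the highest value in ΔGm15551 replicate 1, and it was 0.12 without that mouse. The fibril-associated collagens Col12a1, Col16a1 and Col20a1 had log2FC of -0.13 (SE 0.21), -0.33 (SE 0.25) and -0.054 (SE 0.21). Without wild type replicate 2, its highest mouse, the log2FC of Col16a1 was -0.18. The remaining members Col26a1 and Col28a1 were at 0.921 to 1.98 CPM and 0.355 to 2.37 CPM, with log2FC of 0.36 (SE 0.28) and -0.061 (SE 0.39).

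The smallest p of the family was that of Col7a1, the anchoring fibril collagen that ties epithelial basement membranes to the tissue beneath. It was at 6.95, 5.96, 4.16, 6.81 and 6.10 CPM in ΔGm15551 replicates 1, 2, 4, 5 and 7 and 4.20, 2.90, 2.78, 4.94 and 6.45 CPM in wild type replicates 2, 3, 5, 6 and 7. Wild type replicates 2, 3 and 5 were under or near the lowest ΔGm15551 mouse, replicate 4, and wild type replicates 6 and 7 lay among the ΔGm15551 mice. The log2FC was 0.50 (SE 0.24), with a 95% interval of -0.012 to 1.01 and an unadjusted p of 0.0547, and the adjusted p was 0.9998 (edgeR, Benjamini-Hochberg over 13732 genes). Col14a1, a fibril-associated collagen of dense connective tissue, was at 2.85, 2.41, 2.67, 2.83 and 4.69 CPM in ΔGm15551 replicates 1, 2, 4, 5 and 7 and 3.66, 2.05, 1.499, 1.23 and 2.25 CPM in wild type replicates 2, 3, 5, 6 and 7, on 19 to 63 counts per mouse. ΔGm15551 replicate 7 was the highest mouse and the groups overlapped. Its log2FC was 0.54 (SE 0.30), unadjusted p 0.09, and it was 0.34 without that mouse. Without wild type replicate 2 the estimate for Col14a1 was 0.83 (edgeR, unadjusted p 0.0105, adjusted p 0.99987), and without the 3 wild type mice numbered above 1000 it was 0.12. That of Col7a1 ran from 0.38 to 0.69 as each mouse was left out, lowest without wild type replicate 5 and highest without wild type replicate 7, and without the 3 wild type mice numbered above 1000 it was 0.76 (edgeR, unadjusted p 0.0183, adjusted p 0.999). These genes had the smallest p-values followed by Col11a2, and they were chosen for description on that ground.

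Over the family, 0 of the 29 tested collagen genes differed between the genotypes at an adjusted p under 0.05 in edgeR's quasi-likelihood test, and over all 13732 genes the share called was 0.0%. The unadjusted p was under 0.05 in 0 collagen genes as well, where the share over all genes was 1.59% (219 genes). DESeq2 gave 1 collagen gene at that level (Col7a1) and limma-voom 2 (Col7a1 and Col14a1). Over all 13732 genes they gave 228 and 248, and neither called any collagen gene after adjustment. In 19 of the 29 the log2FC was above 0 and in 10 below, while 49.7% of all genes were above 0. By class, 6 of 8 fibrillar, 4 of 5 basement membrane and 9 of 16 other collagens were above 0. The median log2FC was 0.10 for fibrillar, 0.062 for basement membrane and 0.037 for other collagens, and -0.00087 over all genes. Genes of the family share cells and libraries and are not independent of each other. The fibrillar median was 0.30 without wild type replicate 2. It was -0.20 without the 3 wild type mice numbered above 1000, where replicates 2 and 3 were the only wild type mice. Leaving out ΔGm15551 replicate 1 or wild type replicate 6 took the basement membrane median to -0.055 and -0.032. The direction of these medians thus turned on single mice.

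The data still bound the size of a change. The 95% interval stayed inside a 2-fold change, up or down, for 25 of the 29 collagen genes (7 of 8 fibrillar, 4 of 5 basement membrane and 14 of 16 other), against 90.2% of all genes tested. The exceptions were Col4a4, Col11a2, Col7a1 and Col14a1, each with an upper limit above 1 on the log2 scale. The median absolute log2FC was 0.125 in the family and 0.094 over all genes. In 0 of the 29 genes did the 5 ΔGm15551 values lie apart from the 5 wild type values, where 0.32% of all genes did.

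**Figure D3:**
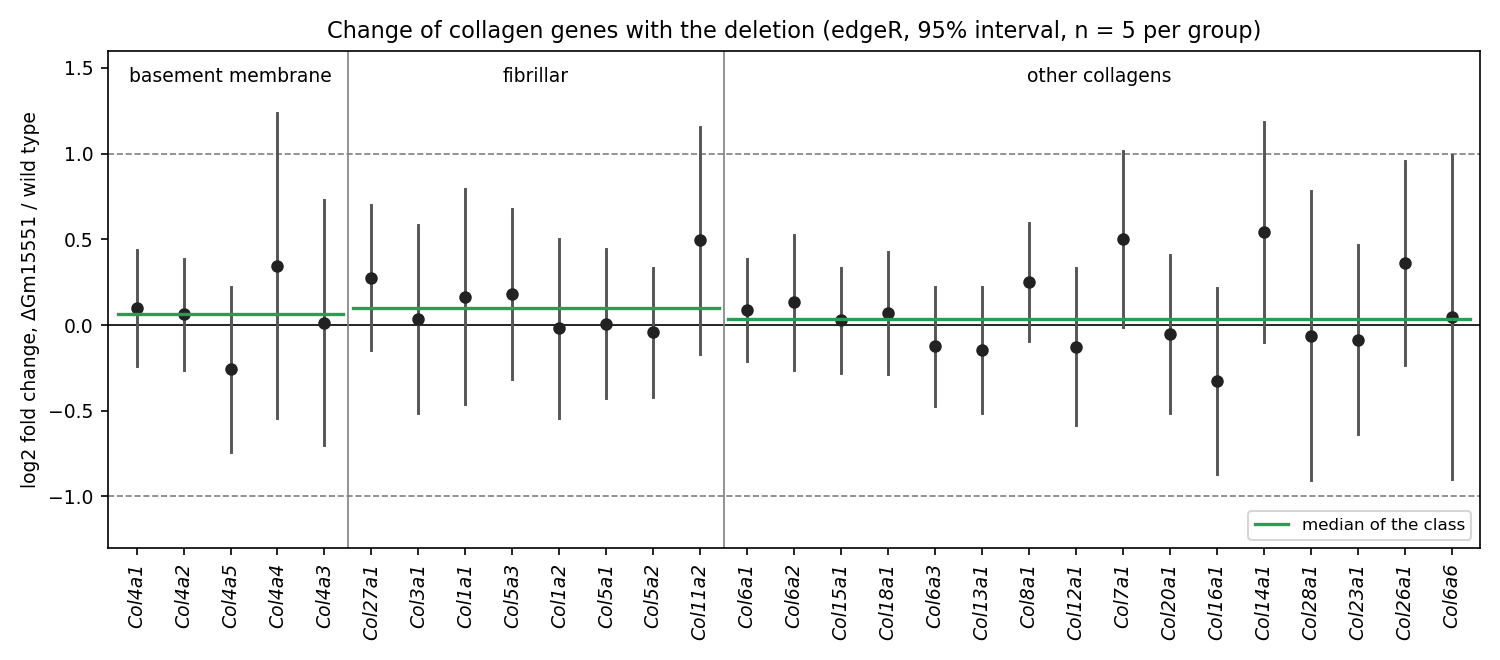
log2 fold change of ΔGm15551 against wild type (y axis) for the 29 tested collagen genes, with the estimate as a point and its 95% interval as a line (edgeR, n = 5 per group). Horizontal bars mark the class medians of 0.062, 0.10 and 0.037, dashed lines a 2-fold change, and every interval includes 0.

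Over all 10 mice, the spread within a genotype was largest, by class median, in the fibrillar genes, which was not so without wild type replicate 2. The within-genotype SD of log2 CPM had a median of 0.451 over the 8 tested fibrillar genes, 0.351 over the 5 basement membrane genes and 0.327 over the 16 others, against 0.269 over all 13732 genes. Col1a1 (0.521), Col3a1 (0.466), Col5a3 (0.464) and Col1a2 (0.438) lay at percentiles 81.2 to 88.5 of all genes, while Col4a1 (0.254) and Col4a2 (0.241) lay at percentiles 45.9 and 41.8. Without wild type replicate 2, an alternative chosen after seeing the data, the medians were 0.319, 0.291 and 0.326, against 0.275 over all genes. Col1a1, Col3a1 and Col1a2 then lay at percentiles 56.9, 57.1 and 49.3, and Col5a3 at 84.6. Wild type replicate 2 had the highest value of the 10 mice in 11 of 29 collagen genes (5 fibrillar, 2 basement membrane and 4 other), and the lowest in 0. Over all genes it was the highest mouse in 6.22%. ΔGm15551 replicate 1 was highest in 9 (11.9% over all genes). ΔGm15551 replicate 7 was lowest in 7, and wild type replicates 5 and 6 in 6 each (6.31%, 5.80% and 6.15% over all genes).

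The marker levels of these mice are given beside them. Fibroblast and progenitor markers summed to 245 CPM in wild type replicate 2 and to 303 in ΔGm15551 replicate 1, the highest of all, and to 258 in wild type replicate 7, which was the highest mouse in none of the 29 tested collagens. Endothelial markers summed to 1034, 1263 and 1162 CPM in these mice and to 692 in wild type replicate 6, the mouse with the lowest Col4a1. Skeletal muscle markers summed to 57.3 CPM in wild type replicate 2, 862 in ΔGm15551 replicate 1 and, at the top of the range, 3105 in wild type replicate 7. Over the 7 fibroblast and progenitor markers, log2FC ran from -0.12 in Dpt to 0.81 in Pi16 (edgeR, unadjusted p 0.012, adjusted p 0.9998). Pi16 was highest in ΔGm15551 replicate 7, at 19.1 CPM. The part of cell composition in the collagen levels was not tested.

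**Figure D4:**
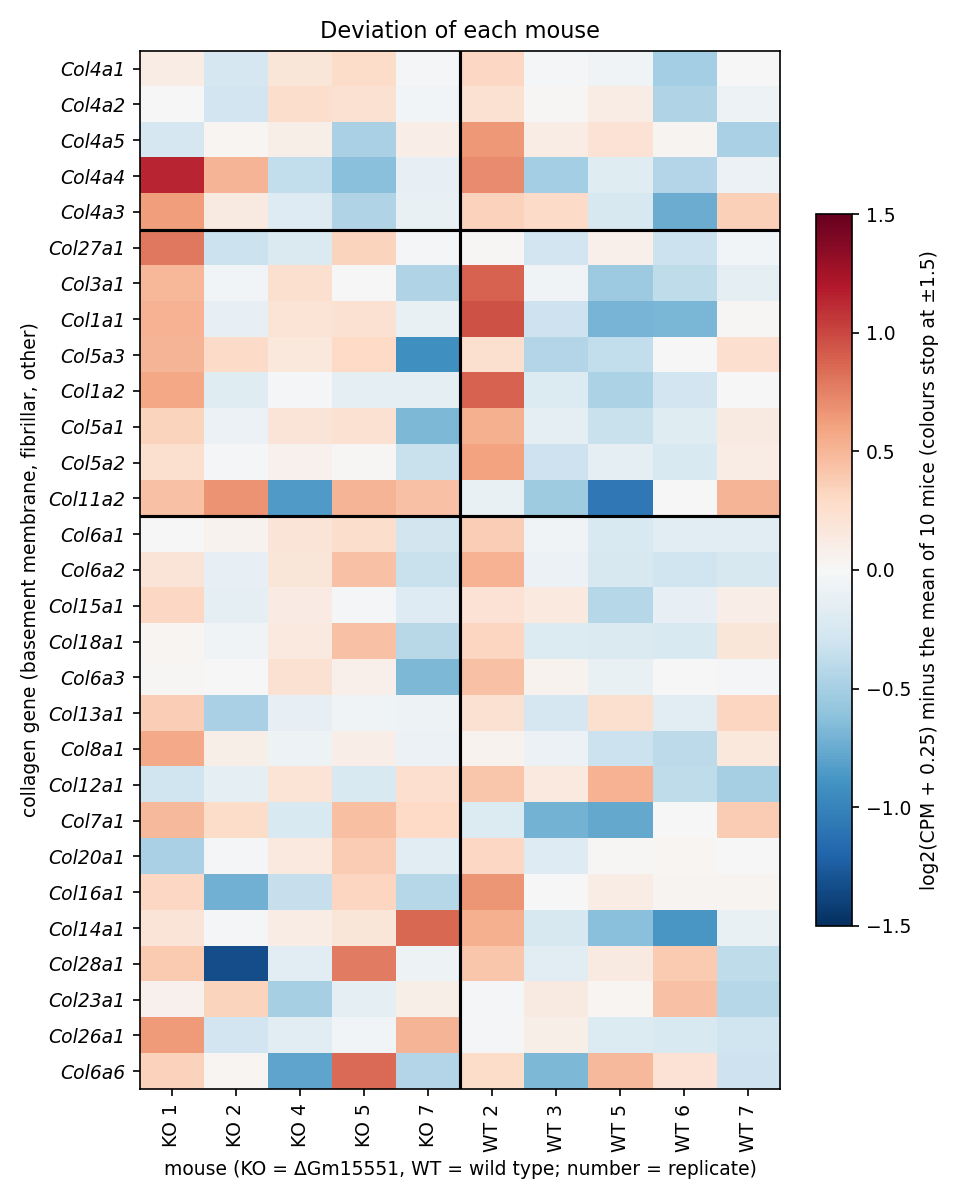
Deviation of each mouse (columns) from the mean of 10 mice in log2(CPM + 0.25) for the 29 tested collagen genes (rows, grouped as basement membrane, fibrillar and other). Red is above and blue below the mean, with colours ending at ±1.5. Wild type replicate 2 is red in the basement membrane rows and in most fibrillar and type VI rows. No row separates the 5 ΔGm15551 from the 5 wild type columns.

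The ratios between chains, which do not depend on library scaling, were compared between the genotypes for 7 pairs by an exact two-sided permutation test over mice. These tests were added after the ratios had been seen. The ratio of Col6a3 to Col6a1 per kb was 0.315, 0.299, 0.319, 0.274 and 0.236 in ΔGm15551 replicates 1, 2, 4, 5 and 7 and 0.326, 0.334, 0.338, 0.346 and 0.343 in wild type replicates 2, 3, 5, 6 and 7. All 5 ΔGm15551 mice lay under all 5 wild type mice, although neither gene on its own had groups that stood apart. The means were 0.289 ± 0.034 and 0.337 ± 0.0080 (SD, n = 5 each), a log2 difference of -0.23 (exact p = 0.00794, the smallest that 252 regroupings allow). This p restates that the groups stood apart. Adjusted over the 7 ratios it was 0.0556 (exact), the smallest that 1 ratio standing apart can give here, so that the adjusted test could not pass 0.05 for this ratio alone. The log2 difference ran from -0.27 to -0.16 as each mouse was left out, nearest to 0 without ΔGm15551 replicate 7, and was -0.20 without the 3 wild type mice numbered above 1000. The ratio of Col1a1 to Col1a2 was 1.88 ± 0.230 in ΔGm15551 and 1.58 ± 0.206 in wild type (exact p = 0.0714, adjusted 0.25), with overlapping groups. The other 5 ratios had exact p-values of 0.167 to 0.929.

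Whether chains of the same collagen moved together was asked across the 10 mice for 7 pairs, with log2 CPM, two-sided permutation tests of 100000 pairings and Benjamini-Hochberg adjustment over the 7. All pairs share libraries and depth. The type IV pair Col4a1 and Col4a2 gave r = 0.94 (adjusted p = 0.00056) and rho = 0.76 (adjusted p = 0.0175). Among 13731 other tested genes, Col4a2 ranked 4 by its r with Col4a1. The type I pair Col1a1 and Col1a2 gave r = 0.91 (adjusted p = 0.00042) and rho = 0.92 (adjusted p = 0.00201), and Col1a2 ranked 5. The type VI pair Col6a1 and Col6a2 gave r = 0.94 (adjusted p = 0.000455) and rho = 0.90 (adjusted p = 0.00201), with rank 2. Without the 2 mice farthest from the median of the first gene, r was 0.86, 0.79 and 0.84. In the 7 mice numbered under 1000 it was 0.94, 0.93 and 0.92.

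Col1a1 and Col3a1, which form mixed fibrils, gave r = 0.91 (adjusted p = 0.00056) and rho = 0.85 (adjusted p = 0.00506), and r was 0.78 without 2 mice and 0.90 in the 7 mice numbered under 1000. Col3a1 and Col5a2, neighbours on chromosome 1 with a gap of 24614 bases, gave r = 0.87 (adjusted p = 0.00217) and rho = 0.77 (adjusted p = 0.0175). Without ΔGm15551 replicate 1 and wild type replicate 2, the mice farthest from the median of Col3a1, r was 0.56 (permutation p = 0.149). Removing the extreme mice narrows the range and can lower r by itself, so this does not show that the relation rested on them. As each mouse was left out, r ran from 0.73 to 0.93. It was 0.95 in the 7 mice numbered under 1000, which include both. Across the classes, Col1a1 and Col4a1 gave r = 0.78 (adjusted p = 0.00974) and rho = 0.90 (adjusted p = 0.00201). The r was 0.84 without 2 mice, and 0.75 in the 7 mice numbered under 1000, where the adjusted p was 0.0581. The multiplexins Col15a1 and Col18a1 gave r = 0.53 (adjusted p = 0.113) and rho = 0.55 (adjusted p = 0.106), which did not pass the threshold, and with library totals in place of TMM they gave r = 0.66 (adjusted p = 0.038). In the 7 mice numbered under 1000 the r of Col15a1 and Col18a1 was 0.40 (permutation, adjusted p = 0.371). The other 3 wild type mice were too few for a value of their own.

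**Figure D5:**
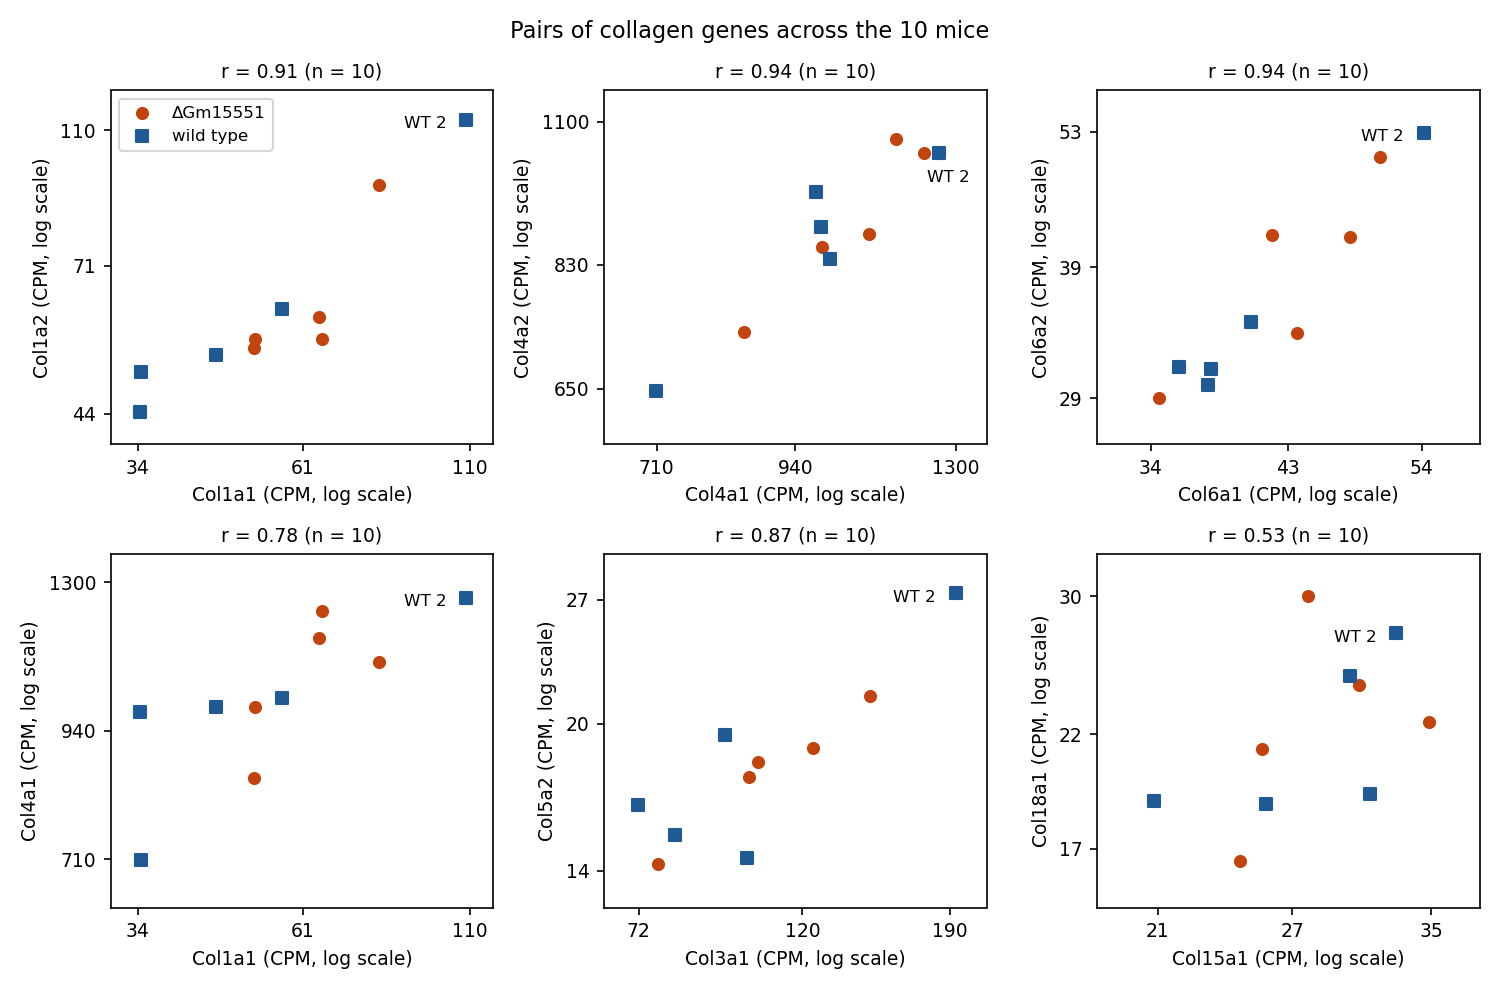
CPM of 6 pairs of collagen genes across the 10 mice, both axes on log scales, circles for ΔGm15551 and squares for wild type, with wild type replicate 2 marked as WT 2. Points of the Col1a1, Col4a1 and Col6a1 pairs with their partner chains rise together (r of 0.91, 0.94 and 0.94), and those of Col15a1 and Col18a1 scatter more (r of 0.53).

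The genes outside the family with the pattern most like Col1a1 over the 10 mice, by Pearson r of log2 CPM, were Gm49417 (0.94), Sema4g (0.94), Tnc (0.93), Fbn1 (0.91), Sptbn1 (0.90), Itgb7 (0.89), Btg2 (0.88) and Etl4 (0.88). Fbn1 encodes fibrillin-1 of elastic microfibrils and Tnc the matrix glycoprotein tenascin C. For Col4a1 they were Gm43681 (0.96), Nans (0.95), Trpm4 (0.95), 4930523C07Rik (0.94), A4galt (0.90), Gm43605 (0.90) and Rassf4 (0.90). Nans encodes sialic acid synthase. With 10 mice and 13731 genes ranked, high values arise for some genes in any list, and these r are a description with no test. Among the collagens, Col1a1 was followed most closely by Col3a1, Col1a2, Col5a2 (0.85) and Col6a2 (0.82), and Col4a1 by Col4a2, Col6a2 (0.79) and Col1a1 (0.78). Col23a1 ran opposite to Col4a1 (-0.68).

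The enzymes, receptors and partners of collagen were taken from a list of 83 genes in the table, of which 72 were tested. Of these 36 had a log2FC above 0 and 36 below, 0 differed at an adjusted p under 0.05 (edgeR), and 2 had an unadjusted p under 0.05, where the share over all genes was 1.59%. These were P4ha1, a catalytic chain of the prolyl 4-hydroxylase that stabilizes the triple helix, and Postn, the matrix protein periostin. P4ha1 was at 28.8, 42.4, 34.9, 27.9 and 44.8 CPM in ΔGm15551 replicates 1, 2, 4, 5 and 7 and 27.96, 33.1, 25.7, 27.5 and 26.1 CPM in wild type replicates 2, 3, 5, 6 and 7. ΔGm15551 replicates 2 and 7 were the highest mice and replicates 1 and 5 lay within the wild type range, and the log2FC was 0.35 (SE 0.14) where edgeR gave an unadjusted p of 0.0318, and the adjusted p was 0.9998. The log2FC was 0.23 without the 3 wild type mice numbered above 1000 and ran from 0.25 to 0.42 as each mouse was left out. Postn was at 97.4, 85.2, 99.9, 92.7 and 88.0 CPM in ΔGm15551 replicates 1, 2, 4, 5 and 7 and 139.5, 111, 99.0, 96.1 and 109 CPM in wild type replicates 2, 3, 5, 6 and 7, and its log2FC was -0.26 (SE 0.12), unadjusted p 0.0443. Without wild type replicate 2, the highest mouse, it was -0.16, and without the 3 wild type mice numbered above 1000 it was -0.43.

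The log2FC of the 72 tested partner genes ran from -0.44 (SE 0.31) in Tgfb2, a TGF-beta ligand, to 0.40 (SE 0.37) in Itga11, a collagen-binding integrin chain. Thbs1 (0.37), Pcolce2 (0.36), Mmp15 (0.31) and Mmp3 (-0.28) were also among those farthest from 0. These 6 genes were named after their values were seen, and none had an unadjusted p under 0.05. The genes that follow were named for their roles. Serpinh1, the collagen chaperone HSP47, was at 284 ± 49.3 CPM among ΔGm15551 and 254 ± 42.6 among wild type mice (SD, n = 5 each), with a log2FC of 0.16 (SE 0.15). P4hb, the other subunit of prolyl 4-hydroxylase, had a log2FC of -0.0029 (SE 0.10) and the lysyl hydroxylase Plod1 of 0.10 (SE 0.11). Of the propeptide enzymes, Bmp1 had a log2FC of -0.10 (SE 0.19), its enhancer Pcolce of -0.23 (SE 0.13) and Adamts2 of -0.042 (SE 0.20). The cross-linking enzyme Lox was at 10.98 ± 2.80 CPM among ΔGm15551 and 10.3 ± 2.001 among wild type mice with a log2FC of 0.091 (SE 0.19). The collagen receptor Ddr2 had a log2FC of -0.066 (SE 0.13). The collagenases and gelatinases Mmp14 and Mmp2 had log2FC of 0.094 (SE 0.23) and 0.033 (SE 0.24), and the cathepsin Ctsk of -0.10 (SE 0.29). Sparc, which binds collagens in basement membrane and fibrils, was at 812 ± 142 CPM among ΔGm15551 and 830.2 ± 128 among wild type mice with a log2FC of -0.032 (SE 0.15), and the fibril-binding proteoglycans Dcn and Lum had log2FC of -0.079 (SE 0.16) and -0.062 (SE 0.22). By group, 10 of 18 folding and hydroxylation genes, 3 of 8 propeptide and cross-linking genes, 2 of 7 receptors, 5 of 9 degradation genes, 11 of 17 matrix partners and 5 of 13 TGF-beta genes were above 0. Leaving out 1 mouse moved the log2FC of Serpinh1 between 0.082 and 0.26, Plod1 between 0.048 and 0.16 and Dcn between -0.25 and -0.0063. Of the 72, 0 passed the test in either direction.

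The 15 members that were not tested held few reads. Col10a1, a short-chain collagen known from growth plate cartilage, had 95 counts in all and up to 27 in 1 mouse (wild type replicate 3), with 0.0893 to 2.30 CPM over the 10 mice. Col9a3 had 46 counts in all, Col11a1 38, Col17a1 25, Col4a6 24, Col8a2 21, Col22a1 21, Col24a1 20, Col9a2 16, Col6a5 13 and Col25a1 13. Col6a4 had 5, Col19a1 3 and Col9a1 and Col2a1 1 each. In 13 of the 15, no mouse had 10 counts, and a difference between the genotypes was not detectable at this depth. A library with 0 counts of a gene still allows up to 3 counts.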

How the data were processed

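Poly A RNA of iBAT from 10 mice was sequenced paired-end on a NovaSeq after NEBNext Ultra II library preparation. As the labels and the study's methods state, reads passed bcl2fastq and cutadapt and were quantified with salmon against GENCODE M22 (GRCm38), and the authors deposited estimated counts per gene, already rounded to whole numbers. Tool versions and the use of strand are not given in the sources used here. All values come from these estimated counts. Reads that fit several genes are shared out by salmon, and genes of the family shared at most 5.35% of their 31-base words with other genes. Lengths and positions were taken from GENCODE M21 on GRCm38, which matched 99.5% of the gene identifiers.

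The main test was edgeR 4.0.16 (R 4.3.3) with TMM scaling, a filter for low counts (minimum count 10, minimum total 15), a robust quasi-likelihood fit of genotype alone and Benjamini-Hochberg adjustment over 13732 genes at a threshold of 0.05. DESeq2 1.42.0 and limma-voom (limma 3.58.1), other scalings and filters, and fits without single mice were alternatives. On simulated data with the libraries' own means (13520 genes), the edgeR step recovered 93% of genes changed by 1 and 97% of those changed by 1.5 on the log2 scale, with 4 false calls. The 200 changed genes were drawn only from genes with a higher mean CPM. Recovery of low collagens such as Col14a1, Col4a4 and Col6a6, or of a few genes changed alone, was not measured. Correlations and exact tests used Python 3.11.15 with NumPy 2.4.6, pandas 2.3.3 and SciPy 1.17.1. No pair of libraries of the same genotype agreed within sampling noise.

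Values per mouse are given for the 4 tested members of each class with the highest CPM per kb, for other main chains of types V, VI, XV and XVIII, for the 3 members with the smallest p and for partner genes at an unadjusted p under 0.05. Other partner genes came from a written list, and genes of like pattern were the 8 with the highest r, of which 1 is not reported here. The members and lists were chosen with earlier results of these data known.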

Additional observations from a re-analysis of the deposited data

Results flagged for a closer look

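In 64 groups of 5 mice searched for a single mouse far from the rest (Dixon's ratio above 0.71), 11 were found. For normally distributed values chance gives about 1 in 20, or 3.2. The share over all genes of these libraries is not given here. In 7 of the 11 the mouse was wild type replicate 2, which was high in Col1a2 at 114 CPM (others 44.3 to 61.7), Col3a1 at 194 CPM (others 71.8 to 101), Col6a1 at 54.2 CPM (others 35.7 to 40.4), Col6a2 at 52.9 CPM (others 29.9 to 34.5), Col6a3 at 48.2 CPM (others 33.0 to 36.8), Col16a1 at 5.002 CPM (others 3.07 to 3.36) and Col4a4 at 2.32 CPM (others 0.854 to 1.23). These 7 are values of the same mouse and are not independent of each other. ΔGm15551 replicate 1 was high in Col1a2 at 92.0 CPM (others 54.3 to 60.1) and Col8a1 at 16.4 CPM (others 10.3 to 11.8). ΔGm15551 replicate 7 was high in Col14a1 at 4.69 CPM (others 2.41 to 2.85), and ΔGm15551 replicate 4 was low in Col11a2 at 5.05 CPM (others 12.7 to 14.96).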

How the results depend on the processing

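No collagen or partner gene passed the adjusted threshold under any of the 20 alternatives run (0 called in each). The count of collagen genes at an unadjusted p under 0.05, 0 in the main fit, was 1 with no filter on low counts, 1 by DESeq2, 2 by limma-voom, 1 with a skeletal muscle score as covariate and 1 without the 3 wild type mice numbered above 1000, and 0 to 2 as each mouse was left out. For the partner genes it was 2, and 1 with library totals, and 0 to 4 as each mouse was left out. Over all genes the count was 219, 869 of 30984 with no filter, and up to 419 as each mouse was left out.

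The replicate numbers shared by both genotypes (2, 5 and 7) gave correlations of the paired mice's deviations of -0.065, 0.054 and -0.39, so they share only a number. In those 6 mice a replicate block gave 2 collagen genes and 1 partner gene at an unadjusted p under 0.05 and 397 over all genes, and the same mice unpaired gave 1 collagen gene and 552 over all genes, with 0 called in both. The median log2FC of fibrillar collagens was -0.19 with the block, -0.27 in the same mice unpaired and -0.20 without the 3 wild type mice numbered above 1000. That of basement membrane collagens was -0.27 with the block and -0.24 unpaired. As each mouse was left out the medians ran from -0.021 to 0.30 (fibrillar), -0.055 to 0.13 (basement membrane) and -0.047 to 0.12 (other).

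Of 680 single-gene log2FC under the alternatives, 599 kept their direction and 81 turned it, in genes whose adjusted p never passed. With the block in 6 mice these were Col27a1 (-0.021), Col3a1 (-0.23), Col1a1 (-0.10), Col5a3 (-0.14), Col4a1 (-0.093), Col4a2 (-0.12), Col4a4 (-0.27), Col6a2 (-0.023), Col15a1 (-0.084), Col18a1 (-0.10), Col5a1 (-0.29), Mmp2 (-0.28) and Mmp14 (-0.33). In the same mice unpaired they were Col3a1 (-0.35), Col1a1 (-0.25), Col5a3 (-0.080), Col4a1 (-0.087), Col4a2 (-0.11), Col4a4 (-0.24), Col6a2 (-0.031), Col15a1 (-0.10), Col18a1 (-0.078), Col5a1 (-0.28), Mmp2 (-0.32) and Mmp14 (-0.34). Without the 3 wild type mice numbered above 1000 they were Col3a1 (-0.41), Col1a1 (-0.30), Col4a1 (-0.083), Col4a2 (-0.078), Col6a1 (-0.12), Col6a2 (-0.15), Col15a1 (-0.16), Col18a1 (-0.025), Col5a1 (-0.19), Serpinh1 (-0.029), P4hb (0.078), Lox (-0.14) and Bmp1 (0.036). With library totals it was P4hb (0.0027). With no filter it was P4hb (0.0042). With a skeletal muscle score as covariate it was Col5a1 (-0.017). As each mouse was left out, values ran through 0 for Adamts2 (-0.16 to 0.10), Bmp1 (-0.26 to 0.011), Col15a1 (-0.065 to 0.087), Col18a1 (-0.045 to 0.17), Col3a1 (-0.090 to 0.35), Col4a1 (-0.0014 to 0.20), Col4a2 (-0.032 to 0.13), Col4a4 (-0.055 to 0.66), Col5a1 (-0.076 to 0.16), Col5a2 (-0.12 to 0.14), Ctsk (-0.39 to 0.048), Ddr2 (-0.12 to 0.012), Lox (-0.044 to 0.18), Lum (-0.33 to 0.028), Mmp14 (-0.038 to 0.24), Mmp2 (-0.21 to 0.13), P4hb (-0.043 to 0.054) and Sparc (-0.11 to 0.051).

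With the longest coding transcript as the length, the shares were 71.7% basement membrane, 18.1% fibrillar and 10.2% other, and with the median coding transcript the fibrillar and other shares were 16.5% and 4.47%. The r of Col1a1 and Col4a1 was 0.75 (permutation, adjusted p = 0.0581) in the 7 mice numbered under 1000, and that of Col15a1 and Col18a1 was 0.66 (adjusted p = 0.0380) with library totals, 0.40 (adjusted p = 0.371) in the 7 mice numbered under 1000 and 0.46 to 0.66 as each mouse was left out. The cause of these changes was not tested. Depth limits the 15 members that were not tested, and 5 mice a group limit the size of difference that could be called.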
